A study of Mus musculus with 12 samples.

Results

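The genes described here encode the machinery that builds fatty acids from carbohydrate carbon. They are Acly, Acaca, Fasn, Me1, Elovl5, Elovl6, Scd1, Scd2, Thrsp and Srebf1, chosen by symbol from a table of 24918 genes measured in mouse hearts, and all 10 were found there, each on 1 row. Total RNA of hearts was sequenced in 12 libraries from untreated C57BL/6 mice that were 2 months old. All mice carried both alleles of the glucocorticoid receptor gene (Nr3c1) flanked by loxP sites. The floxed mice, which serve as controls, were described by nothing further, and the cardioGRKO mice also carried αMHC-Cre, a recombinase driven by a myosin heavy chain promoter that is active in cardiomyocytes. Each genotype was sampled in males and females, which gave 4 groups of 3 libraries. Only cardioGRKO mice carry Cre, so its effect and that of the deletion cannot be told apart. The cells of the heart other than cardiomyocytes keep the receptor. Every library has wild-type entered as its genotype, so the groups were taken from the titles. The question of the study is how loss of the receptor from cardiomyocytes changes heart transcripts in each sex.

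Fatty acid synthesis starts in the cytosol, where ATP citrate lyase (Acly) splits citrate into acetyl-CoA and acetyl-CoA carboxylase (Acaca) turns acetyl-CoA into malonyl-CoA. Fatty acid synthase (Fasn) joins these units into palmitate with NADPH that malic enzyme (Me1) helps to supply, elongases (Elovl5, Elovl6) lengthen the chain and stearoyl-CoA desaturases (Scd1, Scd2) add a double bond. The transcription factor SREBP-1 (Srebf1) activates most of these genes, and Thrsp is a regulator that rises with them in liver and fat. The adult heart mainly burns fatty acids, and liver and adipose tissue are the main places of their synthesis.

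The starts of Fasn, Thrsp and Elovl6 are shown because the first pair had large differences between the groups labelled female, while Elovl6 had small ones. Each window runs from 250 bases before to 50 bases after the start of the gene, from RefSeq on GRCm38.p6, 5′ to 3′ on the strand of the gene. Fasn lies at chr11:120824498-120824797 on the minus strand, Thrsp at chr7:97417501-97417800 on the minus strand and Elovl6 at chr3:129532136-129532435 on the plus strand. Capitals mark CCAAT, read on either strand (ATTGG on the opposite one), the box bound by NF-Y, a factor that works with SREBP-1.
Fasn: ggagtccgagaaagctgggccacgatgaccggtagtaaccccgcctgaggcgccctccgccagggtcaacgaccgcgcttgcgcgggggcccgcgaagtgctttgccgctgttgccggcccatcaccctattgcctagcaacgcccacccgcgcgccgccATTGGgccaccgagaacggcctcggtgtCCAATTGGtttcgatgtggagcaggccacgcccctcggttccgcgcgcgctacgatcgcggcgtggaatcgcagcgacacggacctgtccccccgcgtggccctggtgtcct
Thrsp: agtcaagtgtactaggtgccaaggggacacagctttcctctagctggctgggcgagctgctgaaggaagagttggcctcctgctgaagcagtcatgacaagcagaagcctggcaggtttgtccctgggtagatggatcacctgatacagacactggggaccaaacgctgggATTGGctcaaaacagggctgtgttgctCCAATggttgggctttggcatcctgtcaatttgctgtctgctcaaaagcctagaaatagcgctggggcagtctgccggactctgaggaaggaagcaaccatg
Elovl6: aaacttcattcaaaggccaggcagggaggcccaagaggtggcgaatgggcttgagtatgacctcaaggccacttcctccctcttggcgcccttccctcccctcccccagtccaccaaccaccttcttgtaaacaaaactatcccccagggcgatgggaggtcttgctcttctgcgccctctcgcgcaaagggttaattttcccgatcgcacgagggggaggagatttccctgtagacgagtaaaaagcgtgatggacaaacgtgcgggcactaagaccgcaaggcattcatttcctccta

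Fasn holds 3 such boxes, of which 2 overlap on opposite strands, Thrsp holds 2 and Elovl6 holds 0. Among windows not shown, that of Elovl5 holds 2, that of Acly 1 and that of Acaca 0. Their female differences were 0.06, 0.17 and 0.47. Whether the number of boxes bears on the size of the difference was not tested. RefSeq windows were matched for 8 of the 10 genes, with 11 windows in all, and 7 of the 11 hold CCAAT, against 37.4% of 32851 windows of the genome. The letters TCACNCCAC, one form of the sterol regulatory element that SREBP-1 binds, are in 0 of the 11 windows and in 1.24% of all windows. The E-box CACGTG is in 1 of the 11, that of Elovl5, and in 7.15% of all. The hexamer TGTTCT, a single arm of the glucocorticoid response element, is in 1 of the 11, that of Acaca, against 19.0% of all windows. Both strands were searched for each motif. A match describes letters only, and a missing one says nothing about a factor.

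The values are the authors' normalized log2 values, and all folds are on that scale. The transform behind them is not given in the sources used here, and if it shrank low values towards the mean, the folds understate differences, most of all at low levels. Sequencing depth cannot be read from them, so precision is given as the spread between libraries. Nr3c1 checks the labels. It was 11.41 ± 0.015 (SD, n = 3) in male floxed and 10.85 ± 0.027 in male cardioGRKO libraries, but 10.74 ± 0.035 in the group labelled female floxed and 10.88 ± 0.029 in those labelled female cardioGRKO, so that cardioGRKO libraries were at 67.8% of the floxed level in males and at 110% in females, against the female labels. The groups labelled female are therefore named as labelled, and females below means libraries so labelled. Cardiomyocyte genes, led by Myh6 and Actc1, had summed log2 levels of 21.10 to 21.22 over the 12 libraries. Other features also separated libraries. Atrial genes led by Nppa and Myl4 had summed log2 levels of 14.81 to 14.84 in male floxed, 17.03 to 17.04 in male cardioGRKO, 16.68 to 16.73 in libraries labelled female floxed and 15.61 to 15.64 in those labelled female cardioGRKO. Krt12, a keratin of the corneal epithelium, was 13.13 and 13.98 in replicates 1 and 2 of the group labelled female floxed, 8.35 in the third and 7.16 to 8.49 elsewhere. Whether replicate libraries were made from separate animals is not stated, so p-values reflect nothing wider than the variation among the sequenced libraries, part of which may be technical.

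Across the 4 groups, most of the 10 fatty acid synthesis genes had their lowest mean in the libraries labelled female floxed. Scd1, Fasn, Thrsp, Acaca and Acly stood higher in all 3 libraries labelled female cardioGRKO than in any labelled female floxed, by 3.58-fold for Scd1, 2.78-fold for Fasn, 1.58-fold for Thrsp, 1.38-fold for Acaca and 1.13-fold for Acly. In males the same genes differed less between genotypes, from 0.817-fold for Scd1 to 1.02-fold for Fasn. The male difference of Scd1 still ranked 379 by size of 14721 genes tested, and that of Fasn 8617. The mean of the libraries labelled female floxed was the lowest of the 4 groups for 9 of the 10 genes, all but Scd2. For Elovl6 that mean was 6.94, against 6.95 in both male groups. The share of all genes lowest in that group was not counted. Of all genes, 22.7% were called lower there than in male floxed libraries (limma, adjusted p under 0.05). The 10 genes were chosen with the values of both genotype comparisons known. Their differences are therefore given as a description with limma standard errors (SE) and without p-values.

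**Figure D1:**
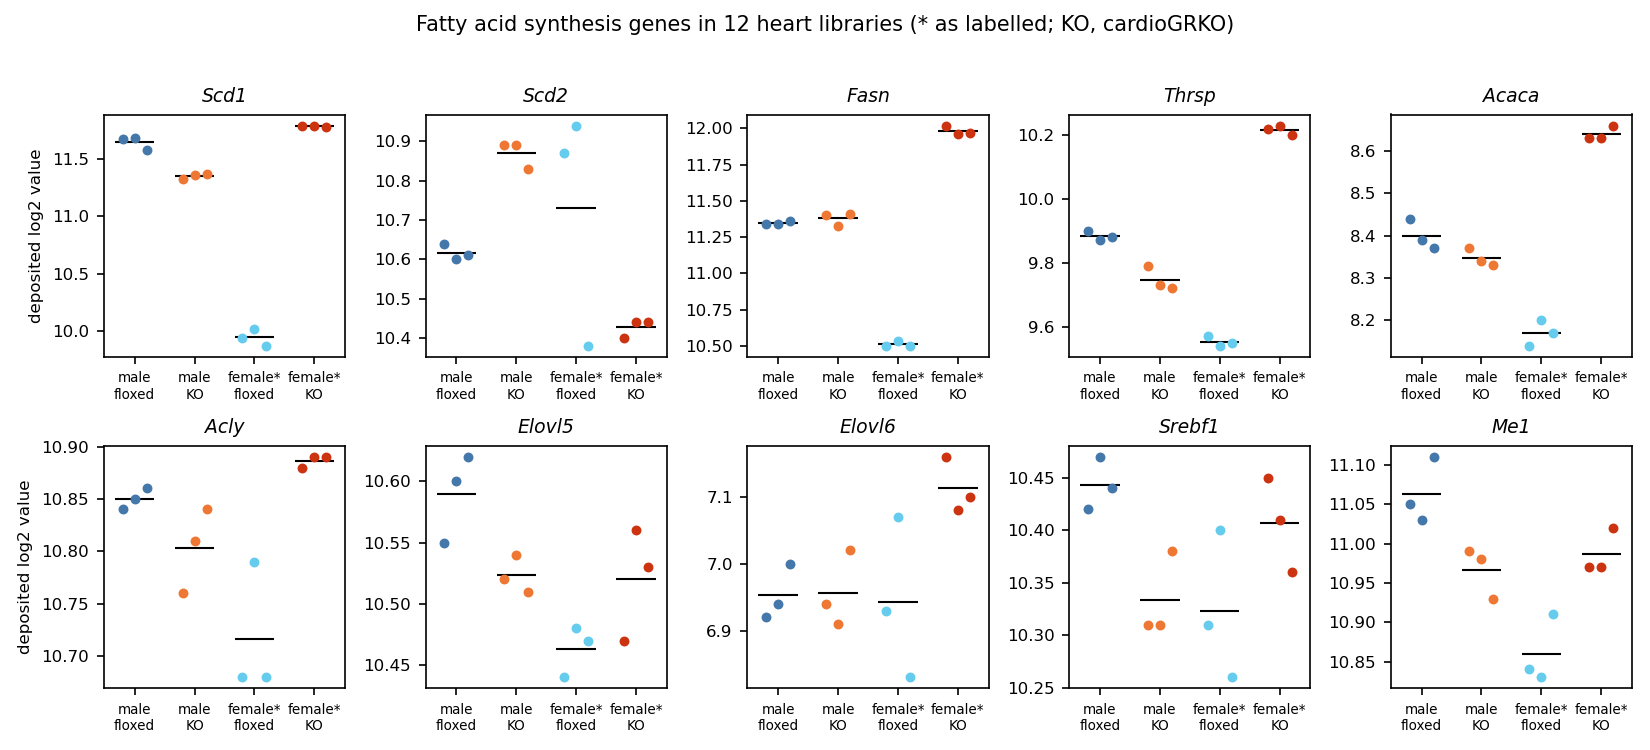
Deposited log2 values (vertical axes, scaled per gene) of the 10 fatty acid synthesis genes by library: every point is 1 of 12 libraries, ordered by replicate number within its group, and lines are group means; groups with an asterisk carry the female label. Scd1, Fasn, Thrsp and Acaca are low in all 3 libraries labelled female floxed and high in all 3 labelled female cardioGRKO, while Scd2 is high in only 2 of the libraries labelled female floxed.

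Among the enzymes that make and join the carbon units, Fasn, the synthase itself, was 11.34, 11.34 and 11.36 in male floxed libraries, 11.40, 11.33 and 11.41 in male cardioGRKO libraries, 10.50, 10.53 and 10.50 in the group labelled female floxed and 12.02, 11.96 and 11.97 in those labelled female cardioGRKO. The male groups overlapped, and the groups labelled female lay on either side of them. The difference between genotypes was 0.03 in males (SE 0.024) and 1.47 in females (SE 0.024), which ranked 13 by size of 14721 genes tested in females, in the direction of the labels.

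Acaca, the carboxylase whose product malonyl-CoA is used by Fasn, had its lowest and highest means in the same groups as Fasn. It was 8.44, 8.39 and 8.37 in male floxed, 8.37, 8.34 and 8.33 in male cardioGRKO, 8.14, 8.20 and 8.17 in the group labelled female floxed and 8.63, 8.63 and 8.66 in those labelled female cardioGRKO. The groups labelled female did not overlap, with a difference of 0.47 (SE 0.027). The male difference was -0.05 (SE 0.027), and the male groups met at 8.37 after rounding but did not overlap before it.

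Acly, which supplies acetyl-CoA, was 10.68, 10.79 and 10.68 in the group labelled female floxed and 10.88, 10.89 and 10.89 in those labelled female cardioGRKO, a difference of 0.17 (SE 0.029). In males it was 10.84 to 10.86 and 10.76 to 10.84, and the groups overlapped. Me1, the malic enzyme that yields NADPH, had its highest mean in male floxed libraries, at 11.06 ± 0.039 (SD, n = 3), against 10.97 ± 0.036 in male cardioGRKO, 10.86 ± 0.045 in libraries labelled female floxed and 10.99 ± 0.027 in those labelled female cardioGRKO. The difference of Me1 was -0.10 (SE 0.028) in males and 0.13 (SE 0.028) in females. Without both libraries labelled female floxed with high Krt12, the female difference of Me1 was 0.07.

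Among the enzymes that modify the chain, the desaturase Scd1 had a female difference that ranked 9 by size of 14721 genes tested, and first among those higher in cardioGRKO as labelled. It was 11.67, 11.68 and 11.58 in male floxed libraries, 11.32, 11.36 and 11.37 in male cardioGRKO libraries, 9.94, 10.02 and 9.87 in the group labelled female floxed and 11.79, 11.79 and 11.78 in those labelled female cardioGRKO. In males all 3 cardioGRKO libraries were below all 3 floxed ones, and in females all 3 were far above. The difference was -0.29 (SE 0.032) in males and 1.84 (SE 0.032) in females.

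Its paralog Scd2, the desaturase best known from brain, did not follow Scd1. It was 10.87, 10.94 and 10.38 in the group labelled female floxed and 10.40, 10.44 and 10.44 in those labelled female cardioGRKO. The 2 high libraries are those with high Krt12, and the third lay just below the cardioGRKO ones. The female difference of Scd2 was -0.30 (SE 0.091) with all libraries and 0.05 without those 2. Without them the group labelled female floxed was a single library with no spread of its own, so no SE is given for 0.05. In males Scd2 was 10.64, 10.60 and 10.61 in floxed and 10.89, 10.89 and 10.83 in cardioGRKO libraries, a difference of 0.25 (SE 0.091) in the direction opposite to that of Scd1. The desaturase genes share some sequence. Of the windows of 50 bases in the longest annotated transcript, 4.66% for Scd1 and 3.79% for Scd2 also occur in another Scd gene, and how reads in such windows were assigned is not given in the sources used here.

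**Figure D2:**
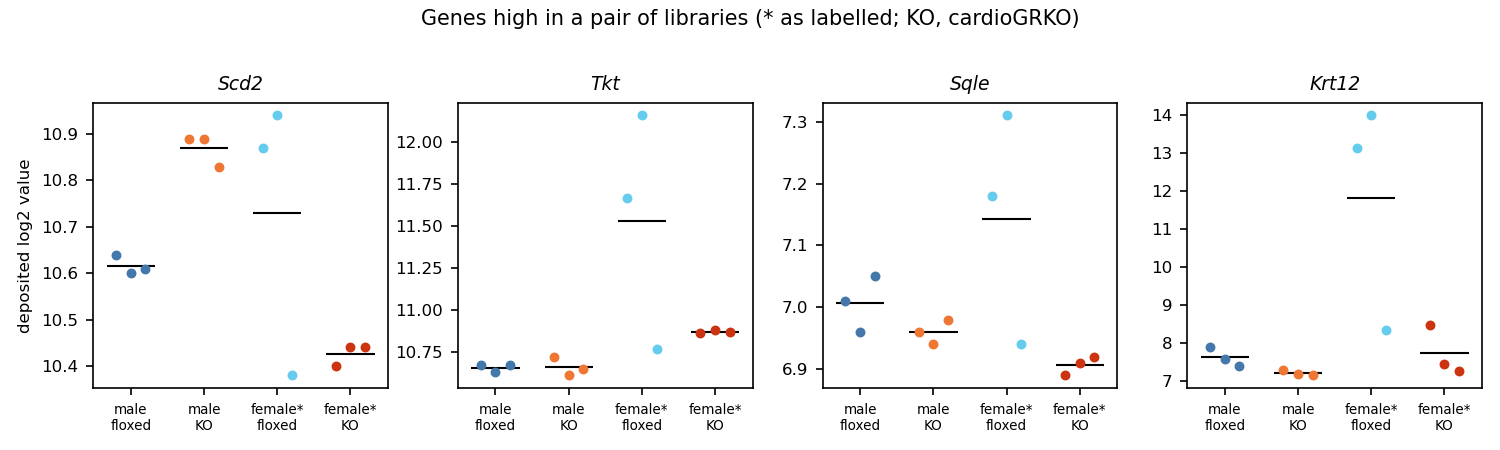
Deposited log2 values (vertical axes, scaled per gene) of Scd2, Tkt, Sqle and Krt12 by library: every point is 1 library, ordered by replicate number within its group, and lines are group means; groups with an asterisk carry the female label. In the group labelled female floxed, replicates 1 and 2 lie above replicate 3 in all 4 genes, and replicate 3 lies near the group labelled female cardioGRKO, as for Krt12 at 13.13, 13.98 and 8.35.

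The elongases differed little. Elovl6, which lengthens palmitate, was 6.92, 6.94 and 7.0 in male floxed, 6.94, 6.91 and 7.02 in male cardioGRKO, 6.93, 7.07 and 6.83 in libraries labelled female floxed and 7.16, 7.08 and 7.10 in those labelled female cardioGRKO. The groups labelled female were separated by 0.01, and their difference was 0.17 (SE 0.047). Without the 2 libraries with high Krt12, which leaves a single library labelled female floxed, the difference was 0.28. Elovl5, which lengthens polyunsaturated fatty acids, had differences of -0.07 in males and 0.06 in females (SE 0.027 each), and the groups labelled female overlapped.

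The regulators differed unequally. Thrsp was 9.90, 9.87 and 9.88 in male floxed, 9.79, 9.73 and 9.72 in male cardioGRKO, 9.57, 9.54 and 9.55 in libraries labelled female floxed and 10.22, 10.23 and 10.20 in those labelled female cardioGRKO. No pair of groups overlapped, with differences of -0.13 in males and 0.66 in females (SE 0.024 each). Srebf1, whose product is controlled by cleavage as well as by its transcript, was 10.31, 10.40 and 10.26 in libraries labelled female floxed and 10.45, 10.41 and 10.36 in those labelled female cardioGRKO, which overlapped, with a difference of 0.08 (SE 0.035). In males Srebf1 was 10.42, 10.47 and 10.44 in floxed and 10.31, 10.31 and 10.38 in cardioGRKO libraries, a difference of -0.11 (SE 0.035). The means of Srebf1 differed by at most 0.12 between any groups, against 1.84 for Scd1 and 1.47 for Fasn. The female difference of Srebf1 was 0.15 without the 2 libraries with high Krt12 and 0.051 without the library labelled female floxed 3.

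**Figure D3:**
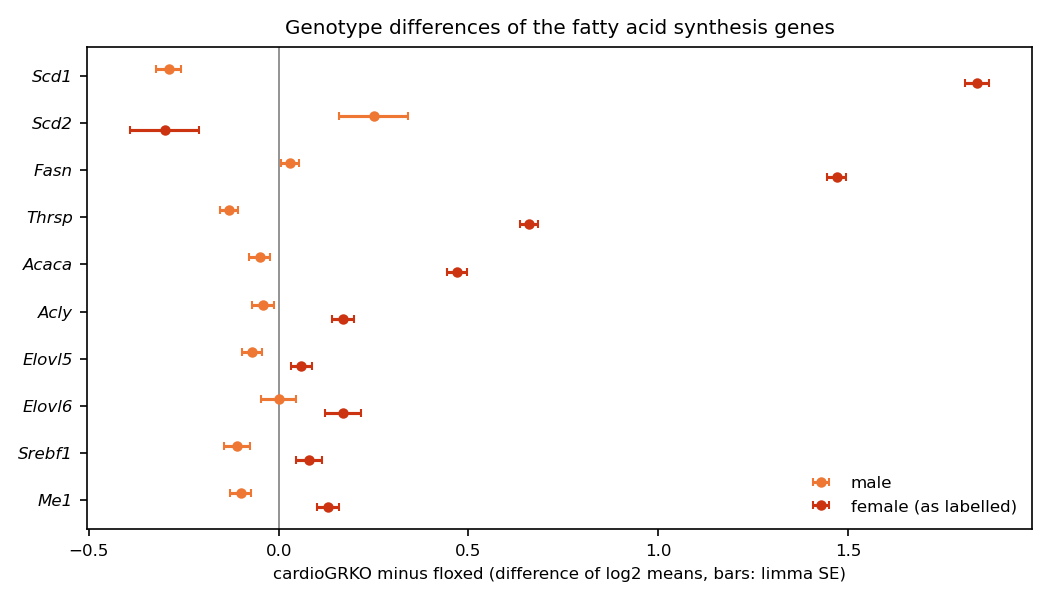
Difference between cardioGRKO and floxed group means on the deposited log2 scale (horizontal axis) for each of the 10 genes in males and in females as labelled (points, n = 3 libraries a group), with limma standard errors as bars. Scd1 at 1.84 and Fasn at 1.47 stand out in females, and the male differences lie between -0.29 and 0.25.

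By count, in the fit across all genes (limma, adjusted p under 0.05) 1 of the 10 genes was called higher and 4 lower in males, where 27.4% of all genes were called, 12.8% higher and 14.6% lower. In females 7 were called higher and 1 lower, where 29.3% of all genes were called, 15.2% higher and 14% lower. For the difference of the genotype effects, female minus male, 8 were called higher and 1 lower, where 31.3% of all genes were called, 17% higher and 14.3% lower. By unrounded values, groups did not overlap for 7 genes in males (41.4% of all genes) and for 7 in females (40.7% of all genes). The median difference of the 10 genes was -0.06 in males and 0.17 in females, against medians of -0.0021 and -0.00037 over all genes tested. For 8 of the 10 genes, all but Fasn and Elovl6, the sign of the difference was opposite in the sexes. The share of all genes with opposite signs was not counted, and whether the female labels are exchanged was not tested. These counts use the comparisons the genes were chosen on and carry no weight beyond description. Without the 2 libraries with high Krt12, which leaves 1 library labelled female floxed, the female median of the 10 genes was 0.25. Scd2 in males kept its call in 9 of 22 alternatives. Its standard error is common to all groups, and its SD was 0.304 in the group labelled female floxed and 0.0228 to 0.0350 in the others.

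The comparison of sexes within a genotype shows which groups stand apart. It was no part of the choice of genes but uses the same libraries, so it is not independent of the differences above. Counts and levels are therefore given as a description, without p-values of single genes. Under the floxed label, 8 of the 10 genes were lower in females and 0 higher (limma, adjusted p under 0.05), where 44.2% of all genes were called, 21.5% higher and 22.7% lower. Scd1 was at 30.7% of the male floxed level, Fasn at 56.0%, Thrsp at 79.6% and Acaca at 85.2%. Elovl6 and Scd2 were not called. Under the cardioGRKO label, 5 of the 10 were higher in females and 1 lower, where 24.2% of all genes were called, 11.9% higher and 12.4% lower. Fasn was at 152% of the male cardioGRKO level, Thrsp at 138%, Scd1 at 135% and Acaca at 122%, while Scd2 was at 73.6%. Acly, Me1, Srebf1 and Elovl5 were not called there, with differences of 0.08, 0.02, 0.07 and 0.00. The order of groups for Scd1 was female cardioGRKO, male floxed, male cardioGRKO and female floxed, and for Fasn the male groups overlapped between the groups labelled female.

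The 10 genes did not vary as a block. Over the 12 libraries, Thrsp and Acaca had Pearson's r of 0.987, Fasn and Acaca 0.962 and Scd1 and Fasn 0.927, while Scd2 had negative r with each of the other 9 genes. Differences between the group means enter these r. After subtraction of the group means, r was 0.271 for Thrsp and Acaca, 0.0952 for Fasn and Acaca and 0.147 for Scd1 and Fasn, whereas Elovl6 and Srebf1 had r of 0.864. Scd2 then had positive r with Scd1 (0.668), Elovl6 (0.624), Srebf1 (0.531) and Acly (0.458), and negative r with Me1 (-0.536) and Elovl5 (-0.0178). Scd2, Elovl6, Scd1, Srebf1, Acly and Me1 had their largest SD in the group labelled female floxed, at 0.304, 0.119, 0.0732, 0.0731, 0.0673 and 0.0452. That group holds the 2 libraries with high Krt12, and how far these r rest on them was not tested. Outside the 10, the tested genes most like Scd1 over the 12 libraries were Gpd1, which makes glycerol phosphate for triglycerides (r = 0.995), Emr1, which encodes the macrophage protein F4/80 (0.991), Adam19 (0.985) and Alox5 (0.976). Those most like Fasn were Ctsd, a lysosomal protease (0.991), Adipoq, which encodes adiponectin (0.986), Mn1 (0.981), Pfkl (0.979) and Bpgm (0.974). For Acly they were Kif11, Arl8b, Slc25a39, Efcab14 and Synpo, at r of 0.960, 0.934, 0.926, 0.919 and 0.919. These are among the 5 highest r for each gene over the tested genes outside the 10, given as a description over libraries that share their groups.

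Other genes of fatty acid synthesis, elongation and desaturation had female differences of -0.17 to 0.31, below those of Scd1 and Fasn in size, and male differences of -0.23 to 0.10, where Fasn differed by 0.03. Of 26 listed, 22 were tested. In females 8 rose and 2 fell (45.5% called, against 29.3% of all genes), and in males 1 rose and 5 fell (27.3%, against 27.4%). Mid1ip1 and Acacb had the smallest p in both comparisons. Mid1ip1, a partner of Thrsp that activates acetyl-CoA carboxylase, fell by 0.23 in males (limma, adjusted p = 1.3e-06) and rose by 0.31 in females (limma, adjusted p = 9e-08). Acacb, the carboxylase at the mitochondrial surface of muscle, fell by 0.19 in males and rose by 0.21 in females (limma, adjusted p = 1.1e-06 and 4e-07). Mid1ip1 was 10.81, 10.79 and 10.77 in the group labelled female floxed and 11.09, 11.09 and 11.11 in those labelled female cardioGRKO. The difference between the sexes in the genotype effect was 0.54 for Mid1ip1 and 0.40 for Acacb, and 31.3% of all genes were called for that difference. It is given without a p-value, because both genes were named for their small p in the same comparisons. Fads3 rose by 0.26 in females and by 0.10 in males, and the weakly expressed Elovl3 rose by 0.08 in females. Mcat, of mitochondrial synthesis, fell by 0.12 in males, and Tecr, of elongation, fell by 0.09 in males and rose by 0.17 in females. Without the 2 libraries with high Krt12, the female median of the 22 was 0.06, against 0.05 with all libraries.

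Genes of fatty acid storage moved in both sexes. Of 25 tested genes of triglyceride synthesis and lipid droplets, 19 rose and 3 fell in females, with a median of 0.15, and 2 rose and 11 fell in males, with a median of -0.04. The shares called, in a list chosen with earlier results known, were 88% and 52%, against 29.3% and 27.4% of all genes. In females Gpd1 rose 1.48-fold, Lpl, the lipase that frees fatty acids from lipoproteins, by 0.34, Gpam, the first acyltransferase of triglyceride synthesis, by 0.34 and Mgll, monoglyceride lipase, by 0.26. In males Lpl fell by 0.37, the droplet proteins Plin5 and Plin3 by 0.32 and 0.31 and Agpat3 by 0.31. Adjusted p ranged over these from 1.5e-11 for Gpd1 to 2.1e-08 for Plin3 (limma). Of 25 genes, 18 had a more positive genotype effect in females and 1 a more negative one (limma, adjusted p under 0.05). Of 6 genes of malonyl-CoA handling and the carnitine shuttle, 5 fell in males and 0 rose, while 5 rose in females and 1 fell, Cpt1b, so that 83.3% and 100% were called, against 27.4% and 29.3% of all genes. Mlycd, which degrades malonyl-CoA, fell by 0.29 and rose by 0.24, and Crat, carnitine acetyltransferase, fell by 0.31 and rose by 0.24. Cpt2 fell by 0.29 and rose by 0.14, and Slc25a20, the carnitine carrier, fell by 0.24 and rose by 0.12. Marker lists of other cells also moved. Of 6 endothelial genes, 6 fell in males, and 4 rose and 1 fell in females. Of 10 cardiomyocyte genes, 7 fell in males, and 3 rose and 1 fell in females. Of 6 fibroblast genes, 4 rose in males, and 1 rose and 5 fell in females. Of 6 macrophage genes, limma called 0 in males, where 2 had an unadjusted p under 0.05, and 3 rose and 1 fell in females: Emr1 rose by 0.32, Csf1r and Mrc1 by 0.12 each, and Cd68 fell by 0.14. All of these shares stand against 27.4% of all genes called in males and 29.3% in females. The part of cell composition in the differences of lipid genes was not tested. In bulk tissue, fewer cells of a type and less RNA per cell cannot be told apart.

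Regulators of lipogenesis other than Srebf1 were called about as often as all genes. Of 24 tested, 7 rose and 0 fell in females (29.2%, against 29.3% of all genes), where Rxra, the partner of the liver X receptors, rose by 0.17, the kinase Prkaa2 by 0.13, the insulin receptor Insr by 0.10 and Akt1 by 0.09. In males 1 rose and 7 fell (33.3%, against 27.4%), with Mlxipl, which encodes the carbohydrate response factor ChREBP, down by 0.31 (limma, adjusted p = 3.4e-07), Rxra by 0.11 and Akt1 by 0.09, while Irs2, which links the insulin receptor to its kinases, rose by 0.20. The female median of the 24 was 0.03 both with all libraries and without the 2 with high Krt12. Of 7 tested targets of the liver X receptors and ChREBP, 2 rose and 3 fell in females (71.4%, against 29.3% of all genes), and 1 rose and 3 fell in males (57.1%, against 27.4%). Txnip, which restrains glucose uptake, was 14.67, 14.65 and 14.67 in libraries labelled female floxed and 13.87 to 13.88 in those labelled female cardioGRKO, a level of 58.0% (limma, adjusted p = 2.3e-16), and rose by 0.11 in males. Arrdc4, a relative of Txnip, fell by 0.32 in males and 0.19 in females. Mylip, a ubiquitin ligase, fell by 0.27 in females, where Smpdl3a rose by 0.11, or by 0.08 without the 2 libraries with high Krt12. Lpcat3 and Abca1 fell in males by 0.12 and 0.09.

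Cholesterol synthesis, the other branch driven by SREBP proteins, did not show the pattern of Scd1 and Fasn. In females 0 of 22 tested genes rose and 7 fell (31.8% called, against 29.3% of all genes), and in males 3 rose and 1 fell (18.2%, against 27.4%), of which 2 calls were left without the library male floxed 2. Among the falls, Sqle, the squalene epoxidase, was 7.18, 7.31 and 6.94 in libraries labelled female floxed and 6.89 to 6.92 in those labelled female cardioGRKO. Sqle and Mvd differed by -0.23 and -0.13 with all libraries (limma, adjusted p = 0.0077 and 0.0068), and by -0.03 and -0.11 without the 2 with high Krt12. Without those 2, the female differences of the 22 lay between -0.11 and 0.09. Leaving out the library labelled female floxed 1 or 2 alone left 2 calls each, and leaving out the third gave 10. Cyp51, Pmvk and Mvd rose in males by 0.13, 0.15 and 0.10, and Stard4 fell by 0.10. In NADPH supply, Tkt, a transketolase, was 11.67, 12.16 and 10.77 in libraries labelled female floxed and 10.86 to 10.88 in those labelled female cardioGRKO. The difference was -0.67 with all libraries (limma, adjusted p = 0.023) and 0.10 without the 2 with high Krt12. Of 11 tested genes listed under NADPH supply, Taldo1 alone rose in females, by 0.09, and Tkt alone fell, which is 2 of 11 genes (18.2%, against 29.3% of all genes). Limma lost both calls without the library labelled female floxed 1 and without either of those labelled female cardioGRKO 1 and 2. Without the 2 libraries with high Krt12, Taldo1 differed by 0.14. In males 4 fell and 1 rose (45.5%, against 27.4%), with Idh1, the cytosolic isocitrate dehydrogenase, down by 0.21, Mdh1 and Me3 by 0.17 each, and Me2 up by 0.17. The list is a loose one, because several of its enzymes, among them Tkt, Taldo1, Mdh1, Me2 and Me3, do not themselves make NADPH in the cytosol.

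**Figure D4:**
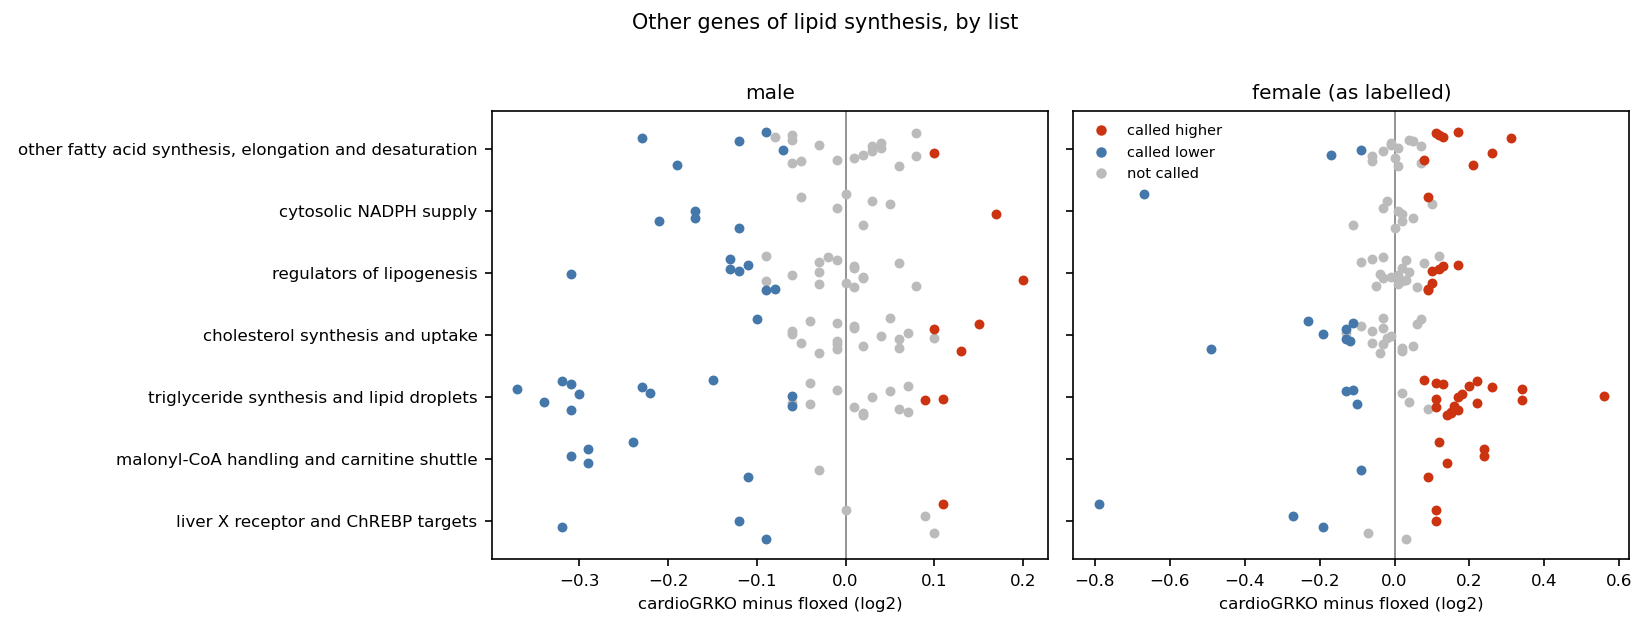
Difference between cardioGRKO and floxed means on the deposited log2 scale (horizontal axes) of each tested gene (points) in 7 lists of lipid genes, in males and in females as labelled; red and blue points passed limma at an adjusted p under 0.05 and grey ones did not. Triglyceride and carnitine genes lie mostly below 0 in males and above 0 in females, while the lowest point of NADPH supply in females is Tkt at -0.67.

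Adipocytes express Scd1, Fasn, Thrsp and Acaca strongly, and genes of adipocytes moved beside them. Of 11 tested white and general adipocyte genes, 9 rose and 0 fell in females, with a median of 0.31, and 3 rose and 4 fell in males (81.8% and 63.6% called, against 29.3% and 27.4% of all genes). Adipoq was 6.76, 6.73 and 6.72 in male floxed, 6.66, 6.69 and 6.72 in male cardioGRKO, 6.45, 6.47 and 6.43 in libraries labelled female floxed and 6.92, 6.92 and 6.88 in those labelled female cardioGRKO. Pck1, which makes glycerol precursors, rose by 0.85 in females and fell by 0.33 in males, Cidec and Plin1, proteins of fat droplets, rose by 0.46 and 0.31, and Car3 by 1.03. Cfd, the complement factor adipsin, rose in both sexes, by 0.51 and 0.59, and Slc36a2 by 0.27 and 0.11. Fabp4, also a gene of capillary endothelium, fell by 0.34 in males and rose by 0.15 in females, and Adrb3 rose by 0.22 in females. Retn rose by 0.07 in males, Nnat differed by 0.04 and -0.04, and Lep, which encodes leptin, was too low to be tested, at 1.49 to 1.52.

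Of 7 tested brown adipocyte genes, 4 rose and 0 fell in females and 0 rose and 4 fell in males (57.1% called in each, against 29.3% and 27.4% of all genes). Ucp1, the uncoupling protein that defines brown fat, was 8.06, 8.02 and 8.09 in male floxed, 7.62, 7.59 and 7.53 in male cardioGRKO, 7.08, 7.18 and 7.02 in libraries labelled female floxed and 8.77, 8.78 and 8.73 in those labelled female cardioGRKO. Ucp1 rose 3.17-fold in females and fell by 0.48 in males (limma, adjusted p = 1.1e-14 and 5.9e-08). Without the 2 libraries with high Krt12 the female difference was 1.74 for Ucp1 and 0.47 for Adipoq. Cidea rose by 0.33 in females, Otop1 by 0.14 and Elovl3 by 0.08. Cox8b fell by 0.13 in males and was not called in females with all libraries, at 0.05. Without the 2 libraries with high Krt12 its female difference was 0.12. Dio2 and Cpn2 were called in neither sex, and Zic1 was too low to be tested, at -0.12 to -0.11. The order of the groups for Ucp1 was that of Scd1. The summed log2 level of the 12 white and general adipocyte genes, mostly Fabp4, was 14.70 to 14.74 in male floxed, 14.44 to 14.45 in male cardioGRKO, 14.41 to 14.46 in libraries labelled female floxed and 14.60 to 14.64 in those labelled female cardioGRKO. That of the 8 brown adipocyte genes, mostly Cox8b, was 14.04 to 14.09, 13.92 to 13.96, 13.93 to 14.06 and 14.08 to 14.10 in the same order. Cox8b, at 13.78 to 13.95, outweighed Ucp1, at 7.02 to 8.78, so this sum is no measure of brown adipocytes. The part of adipocytes in the differences of Scd1, Fasn and their relatives was not tested. Listed markers of other lipogenic tissues, liver and mammary gland, were all too low to be tested, at no more than 2.75. The hepatocyte gene Alb was at -0.28 to -0.26, and the milk protein genes Csn2 and Wap were listed at 0 in all libraries.

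**Figure D5:**
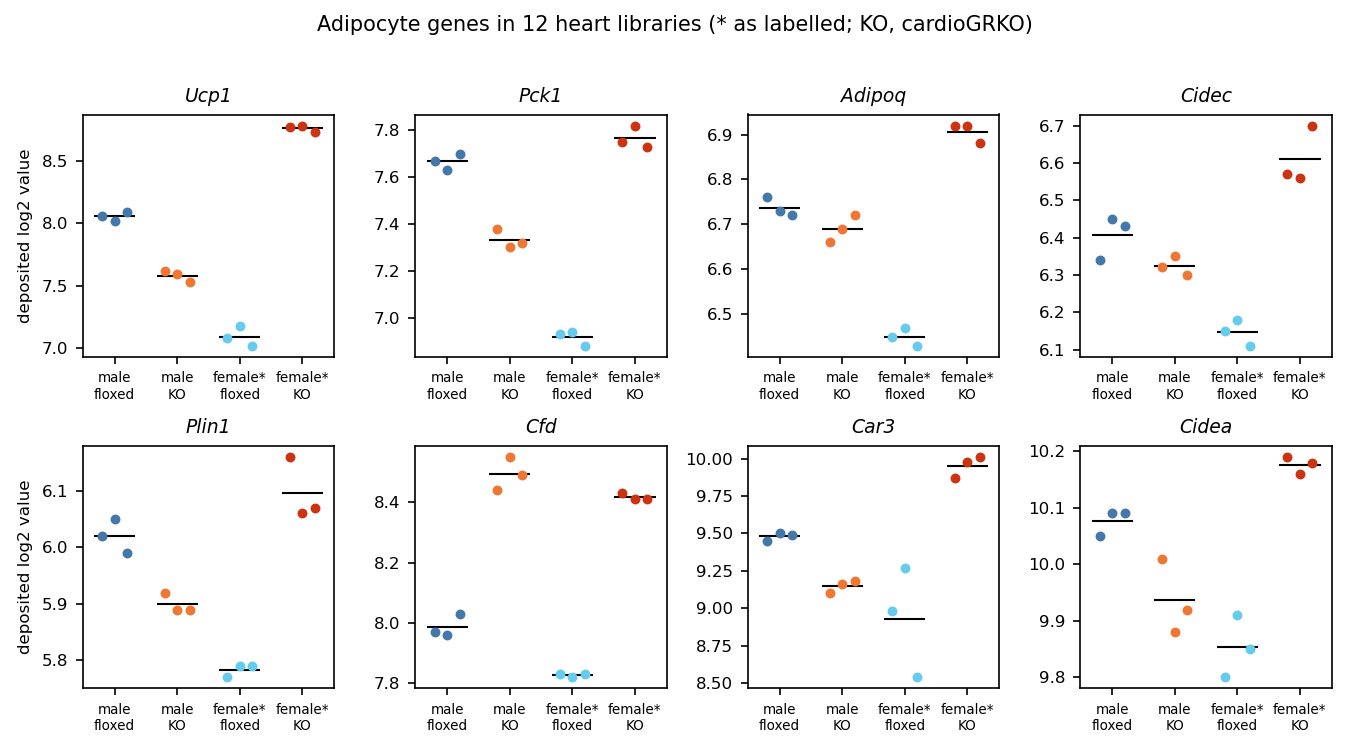
Deposited log2 values (vertical axes, scaled per gene) of 8 adipocyte genes by library: every point is 1 library, ordered by replicate number within its group, and lines are group means; groups with an asterisk carry the female label. Ucp1, Pck1, Adipoq, Cidec and Plin1 are lowest in the group labelled female floxed and highest in those labelled female cardioGRKO, while Cfd is higher in both cardioGRKO groups, at 8.49 and 8.42.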

How the data were processed

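RNA of 12 mouse heart libraries (4 groups of 3) was analysed. The values are log2 values that the authors deposited in 1 table, normalized between libraries. Trim Galore, TopHat2, HTSeq, DESeq2 and build mm9 are named, per the submitters' processing notes. Versions are not given in the sources used here. The values reach -2.20 and 4895 genes are at 0 in all libraries, so counts and depth could not be recovered. Genes at or above the log2 of a linear value of 10 in at least 3 libraries were tested (14721, among them all 10 members). The model in limma 3.58.1 (R 4.3.3) had 1 mean per group, an intensity trend and 8 residual degrees of freedom. Every adjusted p is two-sided and Benjamini-Hochberg adjusted over all tested genes, called under 0.05.

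The members and lists were chosen with earlier results of these data known. Listed genes were matched to the table through Entrez identifiers. The named genes are the members, Nr3c1, up to 4 called genes with the smallest p per pathway list and genotype comparison (otherwise up to 2), all adipocyte genes, the 2 highest genes of other marker lists, and the 5 genes with the highest r to Scd1, Fasn and Acly. Krt12, Cd68, Csf1r, Mrc1, Alb, Csn2, Wap and Cpt1b were named after their values were seen, as were the promoter motifs. Some genes that this rule names are not reported here. Promoter windows are from RefSeq on GRCm38.p6, not the build of the reads, and shared windows of Scd genes from GENCODE transcripts. Scripts were tested on simulated data. Alternatives covered filters, normalization, moderation, weights, fits within 1 sex, a replicate block and left-out libraries.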

Additional observations from a re-analysis of the deposited data

Results flagged for a closer look

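The genotype effect differed between the sexes for 9 of the 10 fatty acid synthesis genes in the fit across all genes, where 31.3% of all genes did so. The difference, female minus male, was 2.13 for Scd1, 1.44 for Fasn, 0.80 for Thrsp and 0.52 for Acaca on the log2 scale. It was 0.22 for Me1, 0.21 for Acly, 0.20 for Srebf1 and 0.13 for Elovl5. For Scd2 it was -0.56, and its female part changes sign when the pair of high-Krt12 libraries of the group labelled female floxed is left out. No p-value is given, because the genes were chosen with both effects known, and all directions in females follow labels that Nr3c1 goes against.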

How the results depend on the processing

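Without both libraries labelled female floxed with high Krt12, the female group rests on 1 library, assumed to vary like the others. The female difference of Scd2 then changed sign, from -0.30 to 0.047, the median of the members moved from 0.17 to 0.245, and the genes called in females fell in number from 4309 to 2734. In the same setting Scd1 stood at 1.91, Elovl6 at 0.281, Srebf1 at 0.152 and Me1 at 0.0746. The cause of these moves was not tested. Leaving out each library in turn gave female medians of the members from 0.152 to 0.222, the highest without the library labelled female floxed 2, and male medians from -0.0669 to -0.0593. Scd2 in females ranged from -0.477 to -0.198 there. Of the lists, cholesterol synthesis had 0 to 10 and NADPH supply 0 to 5 calls in females over 22 alternatives, and regulators had 4 without both libraries. Apart from these, the medians of the members stayed within 1 SD and the counts over all genes within 1.5 times under the alternatives run. The libraries share only a number across groups. Same-numbered deviations had r from -0.11 to 0.15, and with the number as a replicate block limma called 3974 genes in males, 4200 in females, 4560 for the difference, 6418 for the sexes within floxed and 3417 within cardioGRKO libraries. Medians of the members were -0.0601 and 0.171 under the block. With unknown depth, values near the floor, such as those of Lep, show little.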
